A study of Mus musculus with 6 samples.

Results

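The BCL2 family genes Bcl2, Bcl2l1, Mcl1, Bax, Bak1, Bbc3, Pmaip1, Bcl2l11, Bid and Bad were followed in cardiomyocyte RNA after doxorubicin. These 10 genes were taken by name from the 24972 gene rows of the deposited table of normalized read counts, and all 10 were found there. The study compared 3 mice given phosphate-buffered saline as vehicle with 3 mice given 1 intraperitoneal dose of doxorubicin, 25 mg per kg body weight, and took their hearts after 48 hours. All 6 mice carried MX1gfp, a reporter allele that places green fluorescent protein at the interferon-stimulated gene Mx1, so the controls carry it too. The ventricles were digested with collagenase and the myocytes settled by gravity, which enriches cardiomyocytes without sorting them. The labels give neither age nor sex, and each library is taken to be 1 mouse. Doxorubicin is an anthracycline that poisons topoisomerase II and damages DNA, and its use against cancer is limited by harm to the heart.

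BCL2 family proteins decide whether the outer mitochondrial membrane stays closed. BAX and BAK open it and release cytochrome c, the anti-apoptotic proteins BCL-2, BCL-XL (from Bcl2l1) and MCL-1 hold them in check, and BH3-only proteins such as PUMA (from Bbc3), NOXA (from Pmaip1), BIM (from Bcl2l11), BID and BAD sense stress and tip the balance. Much of this control acts on the proteins, through phosphorylation, cleavage and degradation, and mRNA levels do not show it. The p53 protein, which DNA damage stabilizes, is known to raise transcription of Bax, Bbc3 and Pmaip1. In the adult heart MCL-1 and BCL-XL are known to protect cardiomyocytes.

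The promoters of the 4 members with an unadjusted p under 0.05 in the comparison below are shown first. The p53 protein and forkhead factors are among the regulators known for some of these 4 genes. Of the 10 members, 9 had 15 windows in the RefSeq promoter table, whose build GRCm38.p6 is the same assembly as mm10. The 250 bases before an annotated start were searched on both strands for the p53 half-site consensus, the forkhead motif GTAAACA, the E-box CACGTG and the STAT motif TTCNNNGAA. The windows below are chr2:152831729-152831978 (minus strand) for Bcl2l1, chr7:45466899-45467148 (minus strand) for Bax, chr7:16310011-16310260 (plus strand) for Bbc3 and chr2:128125788-128126037 (plus strand) for Bcl2l11, each read 5′ to 3′ toward the start. Capitals mark the matches. The table has 3 windows for Bcl2l1, 3 for Bbc3 and 2 for Bcl2l11. For each gene the one with a match to the earliest motif of those named is shown. Bcl2l1 had no match, so the one farthest upstream of its 3 windows is shown. The Bcl2l1 and Bbc3 windows shown lie inside the gene spans given below, so neither borders the outer end of its gene.
Bcl2l1: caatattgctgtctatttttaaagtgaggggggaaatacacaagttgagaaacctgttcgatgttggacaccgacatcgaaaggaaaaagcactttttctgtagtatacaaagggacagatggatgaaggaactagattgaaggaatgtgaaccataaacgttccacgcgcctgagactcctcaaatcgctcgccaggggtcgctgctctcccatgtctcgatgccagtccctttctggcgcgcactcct
Bax: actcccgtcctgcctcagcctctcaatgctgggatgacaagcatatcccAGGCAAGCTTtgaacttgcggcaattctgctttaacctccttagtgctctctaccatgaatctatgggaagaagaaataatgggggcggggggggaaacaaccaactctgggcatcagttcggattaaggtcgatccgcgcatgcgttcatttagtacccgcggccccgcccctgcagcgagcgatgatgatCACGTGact
Bbc3: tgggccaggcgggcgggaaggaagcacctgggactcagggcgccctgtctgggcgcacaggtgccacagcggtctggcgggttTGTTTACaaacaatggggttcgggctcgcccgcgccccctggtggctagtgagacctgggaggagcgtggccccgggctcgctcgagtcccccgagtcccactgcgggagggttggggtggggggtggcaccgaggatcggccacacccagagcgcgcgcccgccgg
Bcl2l11: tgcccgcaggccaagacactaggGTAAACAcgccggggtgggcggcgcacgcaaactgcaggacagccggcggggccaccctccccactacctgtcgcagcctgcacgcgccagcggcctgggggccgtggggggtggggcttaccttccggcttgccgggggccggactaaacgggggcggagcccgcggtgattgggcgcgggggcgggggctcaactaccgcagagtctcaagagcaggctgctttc
The Bax window held 1 p53 half-site match that began 201 bases before the start, and 1 CACGTG that began 9 bases before it. Half-site matches were found in 1 of the 15 member windows and in 7.13% of the 32851 windows of all genes. CACGTG was found in 2 of the 15 and in 6.02% of all windows. A forkhead match began 167 bases before the start in this Bbc3 window and 227 bases before it in this Bcl2l11 window. Both windows are shown because they hold a match. Over all 15 member windows 2 had a forkhead match, against 3.17% of all windows, and these small counts were not tested. A second Bbc3 window held CACGTG 64 bases before its start. The printed Bcl2l1 window held none of the 4 motifs, and TTCNNNGAA, present in 7.02% of all windows, was in 0 of the 15 member windows. A match describes these letters only, and its absence says nothing of a factor's binding elsewhere.

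Library quality bears on every value below. Vehicle libraries had deposited totals of 7217950 to 7500390 and doxorubicin libraries 5410780 to 6498370. The reads behind them, estimated from what 1 read was worth in each library, numbered about 7707380 to 11371900 and 3668150 to 6171480. The 10 cardiomyocyte markers, none of which was at 0 in any library, had sums of 695933 to 856822 with vehicle, and of 641361, 208447 and 178257 in doxorubicin replicates 1, 2 and 3. All 10 macrophage markers had positive log2 fold changes, with sums of 2583 to 2791 in vehicle and 4238, 7421 and 15615 in doxorubicin. The 7 neutrophil markers summed to 10.5 to 21.7 and to 55.0, 563 and 419, and Retnlg and Ly6g were at 0 in every vehicle library. The 8 fibroblast markers, none at 0, summed to 6236 to 8274 and to 8639, 22816 and 16406, where 7 had positive fold changes and 3 did not overlap. The higher sums lay mostly in Dcn, at 2446 to 2905 in vehicle and 3113, 18072 and 11326 in doxorubicin. Col3a1 was at 1412 to 2268 in vehicle and at 2220, 740 and 1184 in doxorubicin. The 8 endothelial markers, of which 7 had positive fold changes and 5 did not overlap, summed to 16116 to 22379 in vehicle and to 30528, 30323 and 39124 in doxorubicin. The 4 atrial markers summed to 456 to 526 and to 1426, 368 and 692. In its summed cardiomyocyte and fibroblast markers doxorubicin replicate 1 was nearer to vehicle than replicates 2 and 3 were, in its endothelial sum it was level with replicate 2, and in its atrial sum it was the farthest from vehicle. Fewer cardiomyocytes and less RNA per cardiomyocyte cannot be told apart in such bulk samples, and the part that cell makeup has in the member values was not tested.

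Of 12477 genes tested with limma on log2(value + 1), 0 (0%) passed a Benjamini-Hochberg adjusted p of 0.05 in either direction, and 4485 (35.9%) had an unadjusted p under 0.05, 2081 higher (16.7%) and 2404 lower (19.3%). The same holds for the family: 9 of its 10 members reached the minimum mean of 10 and were tested, and 0 passed, while Bcl2l1, Bax, Bbc3 and Bcl2l11 (4 of 9) had an unadjusted p under 0.05. All 9 fold changes were positive, from 0.02 to 1.84 on the log2 scale with a median of 0.47, against 49.6% positive and a median of -0.0046 over all tested genes. Under quantile normalization Bad was negative (-0.016) and the others stayed positive. The groups did not overlap, with doxorubicin higher, in 2 of the 9, against 19.2% of all tested genes, so this share is near the background, and with doxorubicin lower in 0, against 22.6%. When doxorubicin replicate 1 was left out, limma called 41.2% of 12476 genes, 2421 higher (19.4%) and 2715 lower (21.8%). It then called Bcl2l1, Bax, Bbc3 and Bcl2l11 higher, 4 of the 9 members, and 0 lower. Among the fits that each omit a single library, only this one had calls. In Bcl2l1, Bax, Bbc3 and Bcl2l11 the omitted library was the doxorubicin library nearest to vehicle, so its omission selects on the outcome. No quality fault is given as a reason for omitting it. Adjusted p-values and calls from this fit, here and below, are therefore likely too favourable and serve as description only. Without that library 7 of the 9 had non-overlapping groups with doxorubicin higher, against 31.7% of genes, and 0 with doxorubicin lower, against 32.8%; Bcl2 and Bak1 overlapped. When all 6 libraries were weighted by their fit, 4 members were called higher and 0 lower, against 15.7% and 18.6% of all genes (34.2% in all). Doxorubicin replicate 1 had the lowest weight, 0.277 against 0.425 to 3.24 in the other libraries. The weighted fit thus counts the same library least, and its calls are likewise description only. At an adjusted p of 0.10, Bcl2l1 and Bcl2l11 were higher, 2 of 9 against 11.1% of genes, and 0 were lower, against 13.1%.

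**Figure D1:**
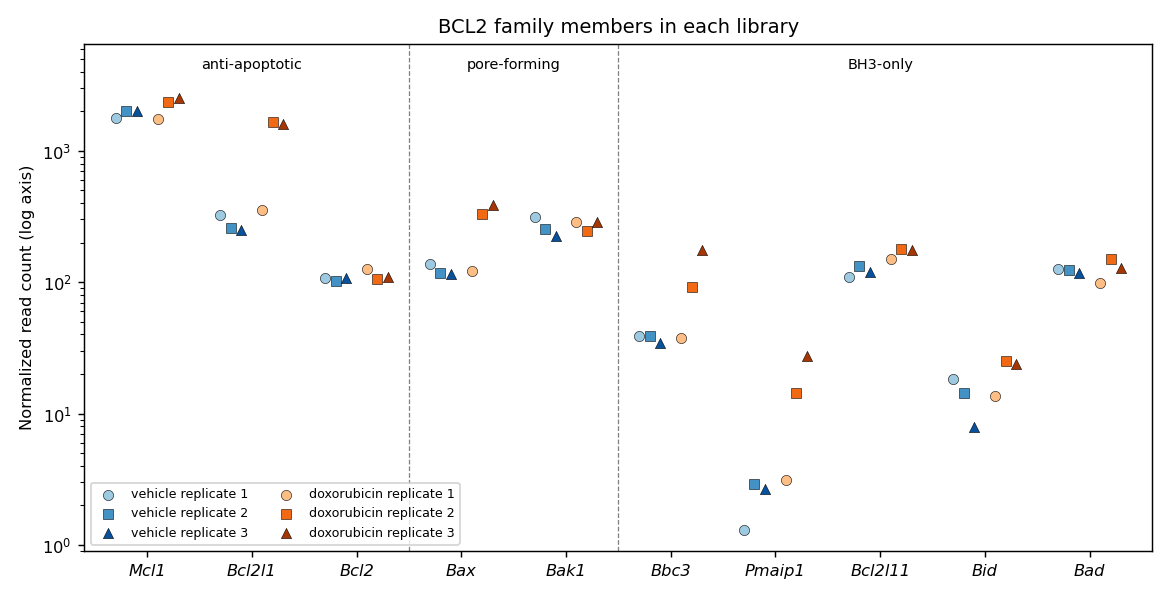
Normalized read count of each BCL2 family member (log axis) in the 3 vehicle libraries (blue) and the 3 doxorubicin libraries (orange), grouped by role. Bcl2l1 stood at 1669 and 1585 in doxorubicin replicates 2 and 3 against 248 to 322 in vehicle, whereas Bcl2 stood between 102 and 126 in all 6 libraries.

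The anti-apoptotic members differed from each other. Bcl2l1 (chromosome 2, 152758732 to 152833803), which encodes BCL-XL, had normalized counts of 322, 256 and 248 with vehicle, given throughout in the order of the replicate numbers, and 357, 1669 and 1585 after doxorubicin. Every doxorubicin library lay above every vehicle library, replicate 1 narrowly and replicates 2 and 3 widely. The group means were 276 ± 40.5 and 1204 ± 735 (SD, n = 3 in each), and the log2 fold change was 1.84 (SE 0.55, limma adjusted p 0.0859). Among all tested genes 1.80% had a fold change at least this high, and 1.69% without doxorubicin replicate 1. Without doxorubicin replicate 1 the fold change was 2.57 (SE 0.16, adjusted p 0.00011), with the limit on that fit given above. The gene makes a long, protective and a short, death-promoting splice form, which values per gene do not separate. Erythroid cells are known for high BCL-XL, and the 5 erythroid markers (Hbb-bs at 0 throughout) summed to 1211 to 2104 in vehicle, 9027 in doxorubicin replicate 1 and 250 and 421 in replicates 2 and 3. Their part in the Bcl2l1 values was not tested. Bcl2l1 overlaps Cox4i2 on the opposite strand, and the use of strand in counting is not given in the sources used here. Cox4i2 held 59.3 to 104 in vehicle and 90.1 to 118 in doxorubicin, and the part of its reads in the Bcl2l1 values was not tested.

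Mcl1 (chromosome 3, 95656944 to 95663179), which encodes the short-lived guardian MCL-1, had 1791, 1992 and 2006 in vehicle and 1738, 2341 and 2501 in doxorubicin. Doxorubicin replicate 1 was the lowest of all 6 libraries and replicates 2 and 3 were the highest, so the groups overlapped. The log2 fold change was 0.17 (SE 0.19, limma adjusted p 0.544), within the spread between replicates, 0.33 (SE 0.16, adjusted p 0.127) without doxorubicin replicate 1 and 0.066 (adjusted p 0.837) without doxorubicin replicate 3. Bcl2 (chromosome 1, 106538176 to 106714290), the founding member of the family, had 107, 102 and 108 in vehicle and 126, 106 and 110 in doxorubicin. Its groups overlapped, the log2 fold change was 0.11 (SE 0.15, adjusted p 0.642), and its highest value was in doxorubicin replicate 1.

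Levels of different members were compared per kilobase of the longest protein-coding transcript in GENCODE M21. In vehicle, Mcl1 was the most abundant at 565 ± 35.2 normalized counts per kilobase (SD, n = 3). Bax, Bak1 and Bcl2l1 followed at 112 ± 11.2, 111 ± 18.5 and 107 ± 15.8, and their ranges over libraries overlapped. Bad stood at 79.9 ± 3.02, Bcl2l11 at 24.0 ± 2.17, Bbc3 at 20.5 ± 1.43, Bcl2 at 14.7 ± 0.46, Bid at 6.19 ± 2.43 and Pmaip1 at 0.84 ± 0.32, and in this order the ranges of neighbours did not overlap. With the median transcript length instead, Bcl2l1, Bak1 and Bax changed places among themselves, the range of Bad overlapped those of Bax and Bak1, and Bbc3 (76.6) came before Bcl2l11 (48.5). Bcl2l1 reached 650 and 617 per kilobase in doxorubicin replicates 2 and 3, beside 685 and 732 for Mcl1 in the same libraries.

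The share of each gene in the summed per-kilobase level of Bcl2, Bcl2l1 and Mcl1 does not depend on how libraries were scaled. Bcl2l1 made up 18.9%, 14.3% and 13.8% of this sum with vehicle and 20.9%, 48.2% and 45.2% after doxorubicin. Mcl1 made up 78.9% to 84.0% in vehicle and 76.5%, 50.8% and 53.6% in doxorubicin. Bcl2 supplied 2.03% to 2.24% in vehicle and 2.63%, 1.09% and 1.12% in doxorubicin. The summed mRNA of these 3 genes thus consisted mostly of Mcl1 in vehicle and in doxorubicin replicate 1. In doxorubicin replicates 2 and 3 it held Mcl1 and Bcl2l1 in similar amounts. Anti-apoptotic genes outside the 3 are left out, among them Bcl2l2, with 483 ± 28.6 normalized counts in vehicle and 389, 412 and 317 in doxorubicin. The sum itself was 664 to 699 in vehicle and 665, 1350 and 1364 in doxorubicin.

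**Figure D2:**
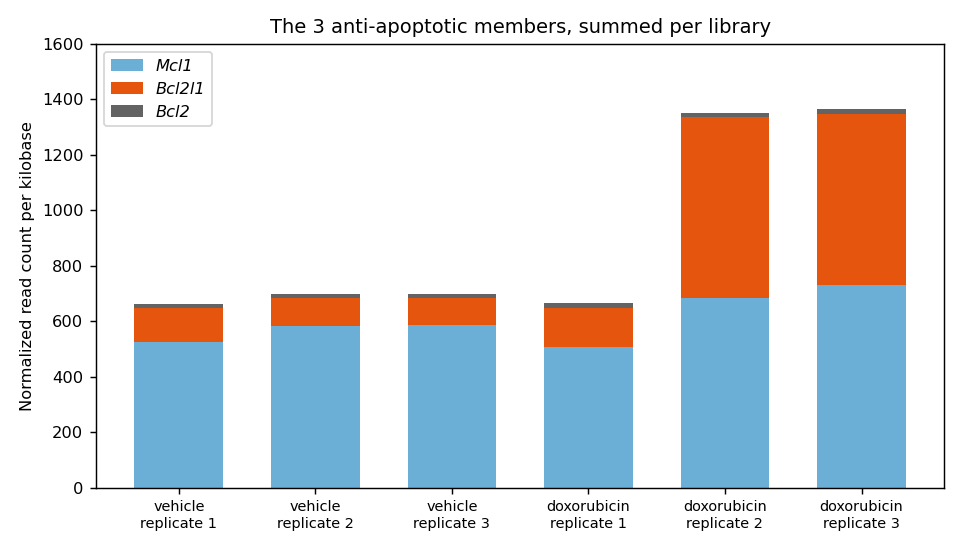
Normalized read counts per kilobase of Mcl1, Bcl2l1 and Bcl2, stacked, in each of the 6 libraries. The Bcl2l1 segment is 96.6 to 125 in vehicle, 139 in doxorubicin replicate 1 and 650 and 617 in replicates 2 and 3.

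The pore-forming pair behaved unequally. Bax (chromosome 7, 45461695 to 45466903), whose protein moves from the cytosol to mitochondria when activated, had 137, 117 and 115 in vehicle and 122, 333 and 387 in doxorubicin. Doxorubicin replicate 1 lay inside the vehicle range and replicates 2 and 3 lay above it, so the groups overlapped. The log2 fold change was 1.03 (SE 0.40, limma adjusted p 0.117), and 1.55 (SE 0.16, adjusted p 0.00045) without doxorubicin replicate 1. Bak1 (chromosome 17, 27019812 to 27028627), whose protein resides on mitochondria, had 312, 254 and 225 in vehicle and 289, 246 and 287 in doxorubicin. All its doxorubicin values lay inside the vehicle range, and the log2 fold change was 0.06 (SE 0.17, adjusted p 0.805), or 0.02 (SE 0.18, adjusted p 0.928) without doxorubicin replicate 1. Ggnbp1 on the opposite strand overlaps the whole of Bak1, and held 31.9 to 81.4 in vehicle and 11.6 to 61.1 in doxorubicin.

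Among BH3-only members, Bbc3 and Pmaip1 had the widest separation of doxorubicin replicates 2 and 3 from vehicle. Bbc3 (chromosome 7, 16308398 to 16318334), which encodes PUMA, had 38.7, 38.7 and 34.2 in vehicle and 37.3, 91.3 and 177 in doxorubicin. Replicate 1 lay inside the vehicle range, and replicates 2 and 3 lay far above it and apart from each other. The log2 fold change was 1.17 (SE 0.50, limma adjusted p 0.139), and 1.75 (SE 0.29, adjusted p 0.0028) without doxorubicin replicate 1. Without doxorubicin replicate 3 it was 0.64 (adjusted p 0.336). Pmaip1 (chromosome 18, 66458604 to 66465558), which encodes NOXA, had 1.29, 2.89 and 2.67 in vehicle and 3.14, 14.4 and 27.2 in doxorubicin. These values rest on about 2, 3 and 3 reads in vehicle and 3, 12 and 18 in doxorubicin, so replicate 1 is not separated from vehicle at this depth. With a mean of 8.60 over the libraries it was not tested. When no minimum was set its log2 fold change was 1.93 (SE 0.70, adjusted p 0.125).

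Bcl2l11 (chromosome 2, 128126038 to 128162547) encodes BIM, which can bind every anti-apoptotic member. It had 110, 132 and 120 in vehicle and 151, 178 and 176 in doxorubicin, and all 3 doxorubicin libraries lay above all 3 vehicle libraries. The log2 fold change was 0.47 (SE 0.16, limma adjusted p 0.0891), a smaller difference than in Bcl2l1 with a smaller spread, and 0.55 (SE 0.16, adjusted p 0.0271) without doxorubicin replicate 1. It overlaps 215 bases of Acoxl on the same strand, which held at most 1.05 in any library. Bid (chromosome 6, 120893119 to 120917062), whose protein caspase-8 cleaves to link death receptors to mitochondria, had 18.4, 14.4 and 7.90 in vehicle and 13.7, 25.3 and 23.7 in doxorubicin. Its groups overlapped, the log2 fold change was 0.61 (SE 0.44, adjusted p 0.338) and 0.29 (adjusted p 0.703) without vehicle replicate 3, and it rests on about 9 to 29 reads per library. Bad (chromosome 19, 6941861 to 6951905), whose protein is kept inactive by phosphorylation and 14-3-3 proteins, had 127, 123 and 118 in vehicle and 98.7, 151 and 128 in doxorubicin. The doxorubicin libraries lay on both sides of vehicle, and the log2 fold change was 0.02 (SE 0.19, adjusted p 0.956). Bad overlaps 590 bases of Gpr137 on the opposite strand, which held 250 to 264 in vehicle and 140 to 186 in doxorubicin, above Bad itself in every library. The part of such reads in the Bad values was not tested.

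**Figure D3:**
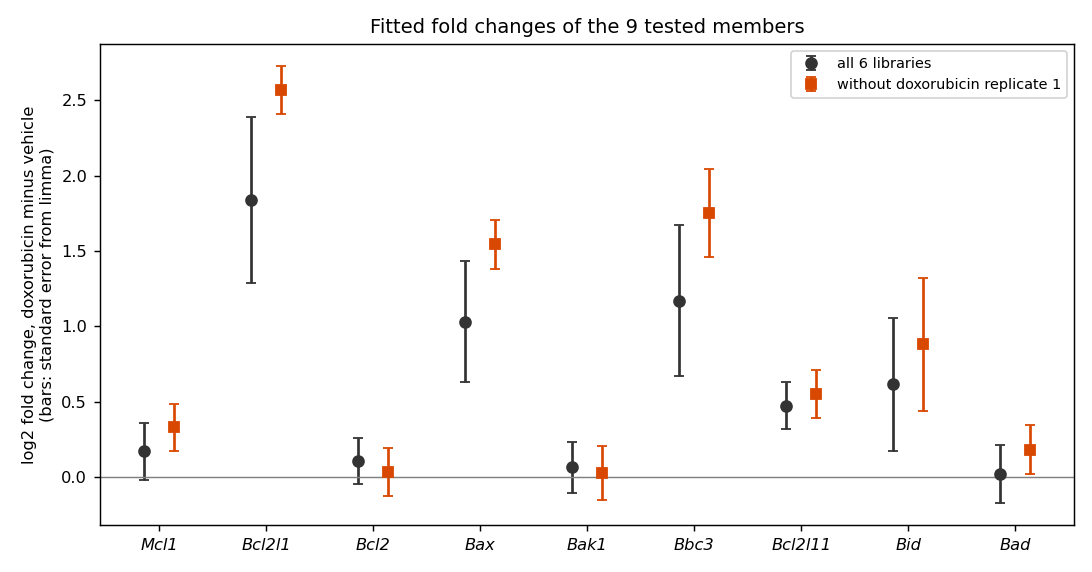
Log2 fold change (doxorubicin minus vehicle) of the 9 tested members with its limma standard error, from all 6 libraries (dark grey) and without doxorubicin replicate 1 (orange). Leaving that library out moved Bcl2l1 from 1.84 to 2.57, Bax from 1.03 to 1.55 and Bbc3 from 1.17 to 1.75 and shrank their errors, while Bcl2, Bak1 and Bad stayed near 0.

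Xist and Y-linked transcripts divided the libraries differently from treatment. Vehicle replicate 3 and doxorubicin replicates 1 and 3 carried Xist, and the other 3 libraries carried Ddx3y. Within the Ddx3y libraries (2 vehicle, 1 doxorubicin) the median log2 difference of the 9 tested members was 0.56, and within the Xist libraries (1 vehicle, 2 doxorubicin) it was 0.43. Bcl2l1 differed by 2.53 and 1.60 in these classes, Bax by 1.39 and 0.92, Bbc3 by 1.22 and 1.23 and Bcl2l11 by 0.56 and 0.43. Bak1 changed sign between them, at -0.19 and 0.35, and so did Bad, at 0.27 and -0.07. No test was made within classes that hold 1 library of a group.

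Ratios of 2 members within a library are free of the scaling between libraries, and 7 pairs that bind each other or share a role were compared, as descriptions without a test. The Bax/Bcl2 ratio was 1.28, 1.14 and 1.06 in vehicle and 0.97, 3.14 and 3.52 in doxorubicin, so it was higher in replicates 2 and 3 and lowest of all in replicate 1. The Bax/Bcl2l1 ratio went the other way, from 0.42, 0.46 and 0.46 in vehicle to 0.34, 0.20 and 0.24 in doxorubicin, and the groups did not overlap. Which anti-apoptotic gene stands in the denominator therefore sets the direction of this ratio in doxorubicin replicates 2 and 3. Relative to Bcl2l1, Bak1 was also lower in all 3 doxorubicin libraries, at 0.81, 0.15 and 0.18 against 0.91 to 0.99 in vehicle, and Bad at 0.28, 0.090 and 0.081 against 0.39 to 0.48. The Bcl2l1/Mcl1 ratio was 0.12 to 0.18 in vehicle and 0.21, 0.71 and 0.63 in doxorubicin. The Bcl2l11/Mcl1 ratio was slightly higher in all 3 doxorubicin libraries, at 0.070 to 0.087 against 0.060 to 0.066, and the Bak1/Mcl1 ratio overlapped between groups. Per kilobase, the summed effectors were 199 to 255 in vehicle and 232, 406 and 472 in doxorubicin, and the summed BH3-only members 124 to 135 and 122, 201 and 237. In doxorubicin replicates 2 and 3 all 3 role sums stood above the vehicle range. Unlike the ratios, these sums depend on the scaling between libraries, and their members did not move alike. Bax held 302 and 352 per kilobase there against 104 to 124 in vehicle, but Bak1 103 and 120 against 94.5 to 131. Bbc3 held 50.3 and 97.6 against 18.8 to 21.3, and Bad 98.5 and 83.4 against 76.7 to 82.7.

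**Figure D4:**
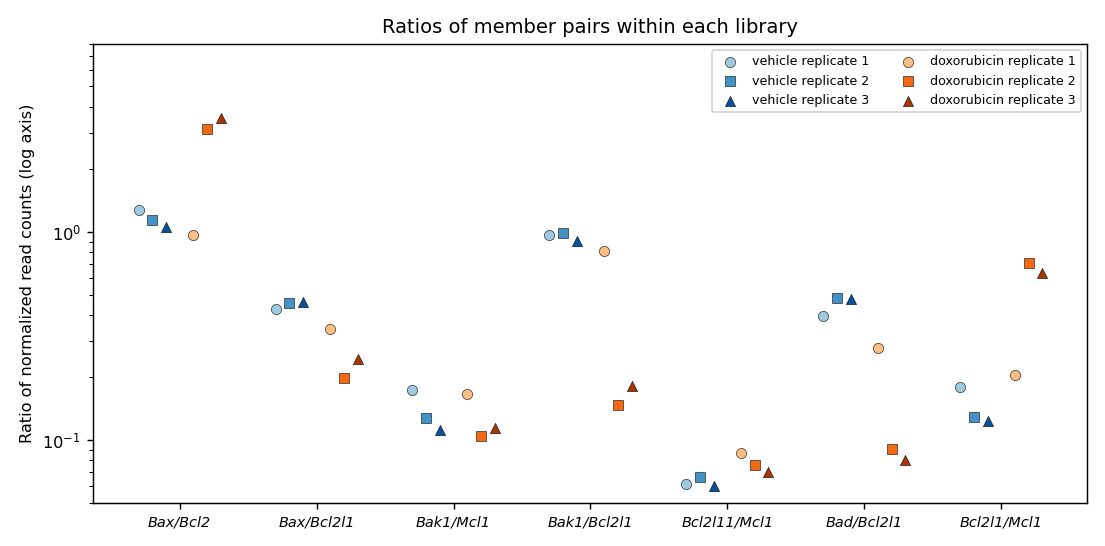
Ratio of the normalized read counts of 7 member pairs (log axis) in each library, vehicle in blue and doxorubicin in orange. Bax/Bcl2 is above the vehicle libraries in doxorubicin replicates 2 and 3, and Bax/Bcl2l1, Bak1/Bcl2l1 and Bad/Bcl2l1 are below vehicle in all 3 doxorubicin libraries.

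Of 15 further BCL2 family and BH3-motif genes, 9 were tested and 0 passed with all 6 libraries. An unadjusted p under 0.05 was found in 3 of the 9, against 35.9% of all tested genes. The median log2 fold change of the 9 was 0.36. Bmf, a BH3-only gene, had 47.5 ± 9.19 normalized counts in vehicle and 71.3, 166 and 111 in doxorubicin, with groups that did not overlap (log2 fold change 1.20, SE 0.32, limma adjusted p 0.0859). Bcl2a1b, a leukocyte anti-apoptotic gene with near-identical copies, had 7.43 ± 1.57 and then 17.7, 12.0 and 29.4 (1.23, SE 0.47, adjusted p 0.111), beside the higher macrophage and neutrophil markers given above. The lowest fold changes were those of Bik (-0.67, SE 0.45, adjusted p 0.309) and Bcl2l12 (-0.47, SE 0.28, adjusted p 0.250). Without doxorubicin replicate 1, Bmf and Bnip3l were called higher and Bik lower, 2 and 1 of 9, where 19.4% and 21.8% of all genes were called. Bcl2l2, which encodes the anti-apoptotic BCL-W, is named here after its values were seen: it had 483 ± 28.6 in vehicle and 389, 412 and 317 in doxorubicin, below vehicle in all 3 (-0.38, SE 0.15, adjusted p 0.121).

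Of 18 tested mitochondrial release and caspase genes, 9 had positive and 9 negative fold changes, and 0 passed with all 6 libraries. An unadjusted p under 0.05 was found in 11, 4 higher and 7 lower, against 16.7% and 19.3% of all tested genes. Without doxorubicin replicate 1, Apaf1, Casp8, Xiap and Birc3 were called higher and Cycs, Diablo, Aifm1, Endog, Vdac1, Vdac2 and Vdac3 lower, 4 and 7 of 18 against 19.4% and 21.8% of all genes. Cycs, the cytochrome c gene, which also serves respiration, had 10303 ± 720 in vehicle and 7334, 4616 and 3135 in doxorubicin (log2 fold change -1.12, SE 0.33, limma adjusted p 0.0859). Endog, a mitochondrial nuclease gene, was at -1.05 (SE 0.32, adjusted p 0.0859). The summed cardiomyocyte markers were lower in the same libraries. Apaf1, the scaffold of the apoptosome, had 94.8 ± 14.1 in vehicle and 101, 205 and 278 in doxorubicin (0.92, SE 0.35, adjusted p 0.112), and Birc3, a caspase-restraining ligase gene, was at 1.14 (SE 0.34, adjusted p 0.0859). The initiator Casp9 was at 0.33 (SE 0.14, adjusted p 0.142), above vehicle in all 3 doxorubicin libraries.

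Among 10 tested transcription factors known to act on members, 0 passed with all 6 libraries. For 3 of the 10 the unadjusted p was under 0.05, against 35.9% of all tested genes. Trp53 mRNA had 172 ± 33.1 normalized counts in vehicle and 176, 163 and 137 in doxorubicin (log2 fold change -0.11, SE 0.19, limma adjusted p 0.708). Gata4, a cardiac factor known to sustain Bcl2 and Bcl2l1, had 1311 ± 123 and then 1111, 791 and 477, below vehicle in all 3 doxorubicin libraries (-0.80, SE 0.29, adjusted p 0.104). Rela, an NF-kappaB subunit, was at 0.55 (SE 0.17, adjusted p 0.0869) and the low E2f1 at 1.16 (SE 0.61, adjusted p 0.207). Without doxorubicin replicate 1, Foxo1 and Rela were called higher and Gata4 lower, 2 and 1 of 10, beside 19.4% and 21.8% of all genes.

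Of 14 genes for kinases, ligases and 14-3-3 proteins that act on member proteins, 0 passed with all 6 libraries and 11 had negative fold changes. The unadjusted p was under 0.05 in 3 of the 14, against 35.9% of all tested genes. Fbxw7, whose product marks MCL-1 for degradation, had 539 ± 76.7 in vehicle and 453, 196 and 180 in doxorubicin, with groups that did not overlap (log2 fold change -1.08, SE 0.34, limma adjusted p 0.0865). Mapk8, which encodes the kinase JNK1, was at -0.58 (SE 0.16, adjusted p 0.0859). The highest were the 14-3-3 genes Ywhab (0.42, SE 0.17, adjusted p 0.124) and Ywhaq (0.38, SE 0.17, adjusted p 0.157). Without doxorubicin replicate 1, Ywhab was called higher and Akt1, Mapk8 and Fbxw7 lower, 1 and 3 of 14 and no more than the 19.4% and 21.8% of all genes.

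Of 12 p53 target genes outside the family, 0 passed with all 6 libraries. In 7 the unadjusted p was under 0.05, 4 of them higher and 3 lower, against 16.7% and 19.3% of all tested genes. Trp53inp1, a p53 cofactor, had 120 ± 22.0 in vehicle and 145, 1001 and 743 in doxorubicin (log2 fold change 2.00, SE 0.65, limma adjusted p 0.0878). Like Bax and Bbc3, it was far above vehicle in doxorubicin replicates 2 and 3 and close to it in replicate 1. Cdkn1a, the cell cycle inhibitor p21, was at 2.70 (SE 0.74, adjusted p 0.0859). Perp, a membrane protein gene, and Ccng1, which encodes cyclin G1, lay below vehicle in all 3 doxorubicin libraries, at -0.56 (SE 0.16, adjusted p 0.0859) and -0.88 (SE 0.27, adjusted p 0.0859). Without doxorubicin replicate 1, 7 of the 12 were called higher and 3 lower, against 19.4% and 21.8% of all genes.

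**Figure D5:**
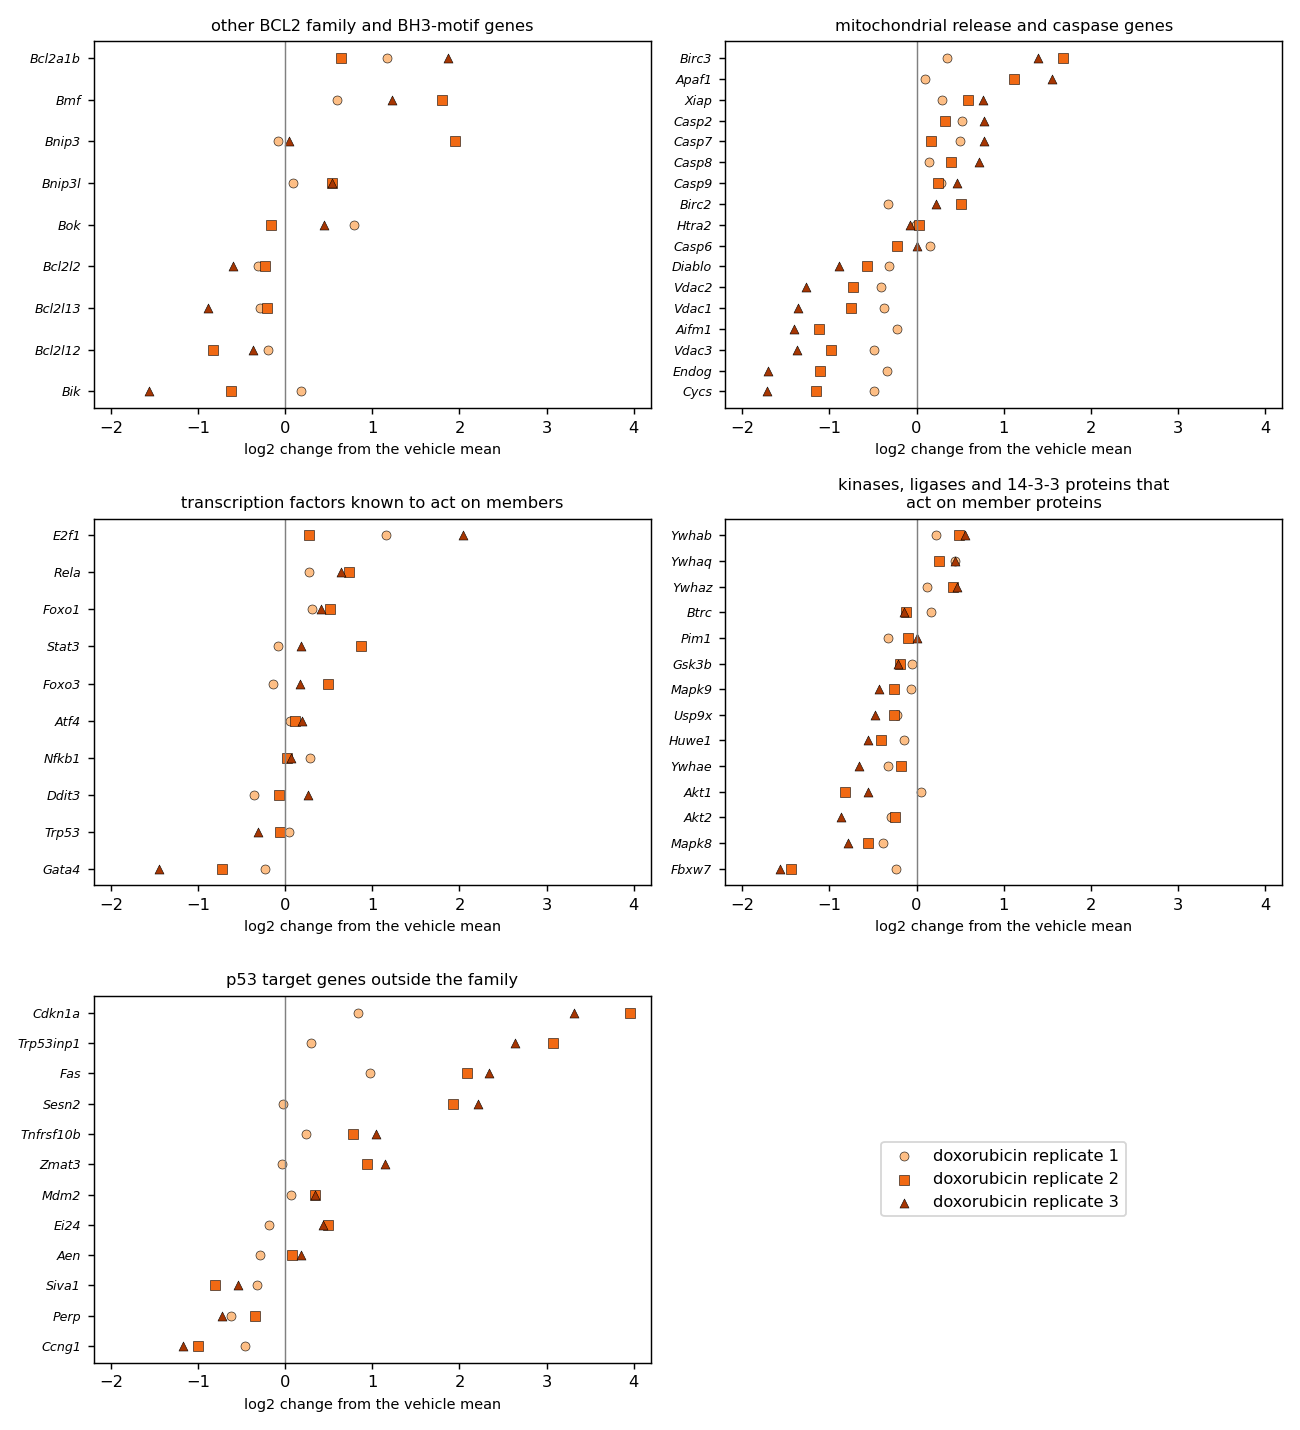
Log2 change of the tested genes of the 5 other lists, 1 gene left out, from the vehicle mean in doxorubicin replicates 1 (circles), 2 (squares) and 3 (triangles). In most genes that differ, such as Trp53inp1, Apaf1, Fbxw7 and Cycs, replicates 2 and 3 lie farther from 0 than replicate 1.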

How the data were processed

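RNA was measured in 6 libraries, 3 vehicle and 3 doxorubicin, grouped and numbered by their titles. The series' design text gives alignment to mm10 (RefSeq) by the STAR option of RNAseq Alignment 2.0.2 and then RNA-seq Differential Expression 1.0.1. The submitters' processing notes name STAR 2.6.1a and Salmon. The table that the authors deposited holds a signal per gene and library, described as normalized read counts. How the values were normalized, which tool counted reads and whether strand was used is not given in the sources used here. Median-of-ratios factors computed from the table were 1.01 in every library.

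Values were used as deposited. Genes with a mean of at least 10 were tested on log2(value + 1) with limma 3.58.1 in R 4.3.3, with a mean-dependent prior variance, two-sided, Benjamini-Hochberg threshold 0.05. Fold changes are on the log2(value + 1) scale, which understates low genes. An exact permutation test of 3 against 3 cannot give a p below 0.1, so none is reported for single genes. If libraries were not from separate mice, p-values would measure technical spread only. The fit was tested on simulated data. Reads were estimated by dividing values by the most common low value of a library. Coordinates are from RefSeq (GRCm38.p6) and count from 1, and strands from GENCODE M21. Genes named with their values are the 10 members and, from each of 5 other lists, the 2 tested genes with the largest positive and the 2 with the largest negative fold change, plus Trp53, Cdkn1a, Apaf1, Casp9, Cycs and Gata4; 1 further gene of this rule is not reported here. Genes called without doxorubicin replicate 1 are also named, after their values were seen, as is Bcl2l2. The p53 target list is an exception, where called genes outside the rule are only counted. Members and lists were chosen with earlier results of these data known. The alternatives concern the pseudocount, the filter, the scaling, the variance model, weights, covariates, left-out libraries, the threshold and transcript length. Figures were drawn with matplotlib 3.10.9.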

Additional observations from a re-analysis of the deposited data

How the results depend on the processing

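With all 6 libraries, 0 members and 0 genes were called under pseudocounts of 0.5 and 8, no minimum, a minimum mean of 50, equal totals, median of ratios, quantile normalization, no trend or the Xist or Y-linked class covariate. Median of ratios could not change the result, because its factor was 1.01 in every library. Library weights, lowest for doxorubicin replicate 1, gave 1954 genes higher and 2318 lower, with 4 members called higher. A threshold of 0.10, added after the data were seen, gave 1383 and 1639 genes and 2 members, Bcl2l1 and Bcl2l11. Scaling each library to equal cardiomyocyte marker sums moved the median of all genes to 1.44 and gave 4762 of 12969 genes higher and 14 lower. Pmaip1 then reached the minimum mean, so 10 members were tested in place of 9. Of these 10, 6 were called higher, Pmaip1 among them, and the member median was 1.95. That scaling assumes that these markers did not change per library. With equal totals the median of all genes was 0.30 and that of the members 0.77, in place of 0.47. When 1 library was left out at a time, genes called higher ran from 0 to 2421, genes lower from 0 to 2715, members higher from 0 to 4 and the member median from 0.29 to 0.63. The 0.63 came without vehicle replicate 1 and is over 10 members, because Pmaip1 then reached the minimum mean. All calls in the fits with 1 library left out came without doxorubicin replicate 1. Bad changed sign under quantile normalization (-0.016) and without vehicle replicate 3 (-0.011), doxorubicin replicate 2 (-0.12) or doxorubicin replicate 3 (-0.0041), and Bak1 without vehicle replicate 3 (-0.043); the cause was not tested. With 1 library left out at a time Bad ran from -0.12 to 0.18 and Bak1 from -0.043 to 0.19. The other 7 tested members stayed positive under each alternative in which they were tested; Bid was not tested under the minimum mean of 50. Same-numbered libraries did not deviate together (correlations of -0.128, 0.0331 and -0.0928), and unlike-numbered ones ran from -0.183 to 0.223. With so few libraries this check cannot exclude pairing by number. The replicate block gave 0 calls, a member median of 0.47 and a limma adjusted p of 0.115 for Bcl2l1. Depth limits Pmaip1 and Bid most.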
